A study of Mus musculus with 6 samples.

Results

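Fatty acid oxidation and ketone body metabolism were described through 39 genes that encode the enzymes, carriers and regulators of this pathway. The genes were listed by name for their role in the pathway, with no threshold on a measured value, and all 39 were found by gene name and versioned identifier among the 55450 genes of the GENCODE M21 annotation in the count tables. Testing was limited to the 17037 genes that reached 10 counts in 3 or more libraries, and 38 of the 39 were among them. The remaining gene, Fgf21, had too few counts. RNA was measured by bulk RNA-Seq in primary hepatocytes of male C57BL/6 mice (C57BL/6J in the study's methods), isolated by collagenase perfusion and sequenced as total RNA. The 3 libraries called 0 h came from undamaged liver, and the 3 libraries called 48 h came from liver 48 h after partial hepatectomy (PHx), an operation that takes out the larger part of the liver and sets off its regrowth. The labels name no engineered allele and no drug for either time point. The mice were fed a normal diet, and their age was 10 to 12 weeks per the labels and 9 to 10 weeks in the study's methods. Each library was a separate hepatocyte preparation, and the 0 h mice were undamaged with no sham operation, so the removal of tissue and the surgery itself cannot be told apart.

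Hepatocytes take up fatty acids and activate them to acyl-CoA, and the carnitine shuttle then carries long-chain acyl groups into mitochondria. There the β-oxidation spiral shortens them in repeated rounds of dehydrogenation, hydration, a further dehydrogenation and thiolytic cleavage, and electron transfer flavoprotein passes the electrons on to the respiratory chain. Peroxisomes shorten very long and other difficult chains first, and in fasting the liver turns much of the resulting acetyl-CoA into ketone bodies. Many of these genes are targets of PPARα, the nuclear receptor that is activated by fatty acids and by fasting.

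The libraries held 31419443 to 36346220 gene counts, and a floor of 3 counts corresponded to 0.0825 to 0.0955 CPM (counts scaled to a common library total, here always normalized by the TMM method). The replicates of a time point correlated with r of 0.991 to 0.995 across genes, against 0.937 to 0.954 between time points. All 14 hepatocyte markers were expressed and together reached 121620 to 141091 CPM at 0 h and 88232 to 115241 CPM at 48 h, with 4 of them lower (Alb, Apoa1, Apoa2 and Ttr) and 2 higher (Fga and Fgb). Of the 10 endothelial markers, 9 were lower at 48 h, with sums of 224 to 351 CPM at 0 h and 166 to 185 CPM at 48 h, and of the 10 Kupffer cell markers 2 were higher (sums of 78.3 to 118 and 112 to 137 CPM). The 10 stellate cell markers, with 1 higher and 1 lower, summed to 76.0 to 123 CPM at 0 h and 69.0 to 82.1 CPM at 48 h, and the 8 cholangiocyte markers, with 1 higher, to 35.0 to 63.1 and 47.0 to 58.7 CPM. Neutrophil, lymphocyte, adipocyte and muscle markers summed to at most 1.06 CPM per list in any library, with Mpo, Ltf, Retnlg, Cd3d, Lep, Tnnt3 and Myl2 at 0 counts throughout. The red blood cell list (55.9 to 86.6 and 18.7 to 40.4 CPM) was carried by Alas2, and its globin gene Hbb-bt was at 0. The part of these cell types in the results that follow was not tested.

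At 48 h after PHx the hepatocytes held less RNA of all 3 uptake and activation genes, of 4 of the 5 peroxisomal oxidation genes and of 3 of the 4 genes for unsaturated fatty acids, whereas 3 acyl-CoA thioesterases and Pdk4, an inhibitor of pyruvate oxidation, rose. Hadha, Hadhb, Hadh and Acaa2, the 4 of the 39 genes that encode enzymes of later steps of the mitochondrial spiral, did not pass the test. Hsd17b10, a further gene of these steps outside the 39, was lower. Of the 38 genes tested, 17 were lower and 6 were higher at an adjusted p under 0.05, where 19.3% of all 17037 genes tested were lower and 21.4% were higher. The genes that rose were Crat, Acadl, Acot2, Acot3, Acot4 and Pdk4. With a log2 fold change of at least 1 in size, 5 genes were lower (7.94% of all genes) and 4 were higher (9.69%). All 3 libraries at 48 h were below all 3 at 0 h for 16 genes (25.0% of all genes) and above them for 7 (27.8%). Log2 fold changes are given for 48 h over 0 h, with their standard error (SE). The median log2 fold change of the 38 genes was -0.29, against -0.00 over all genes tested, and 27 of the 38 values were negative. With scaling by library size only, which moved the median of all genes up by 0.20, 11 of the 38 genes were lower and 7 were higher, and 71.6% of all calls were on the higher side, against 52.5% with TMM. In these bulk samples, fewer cells that express a gene and less of its RNA per cell cannot be told apart.

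**Figure D1:**
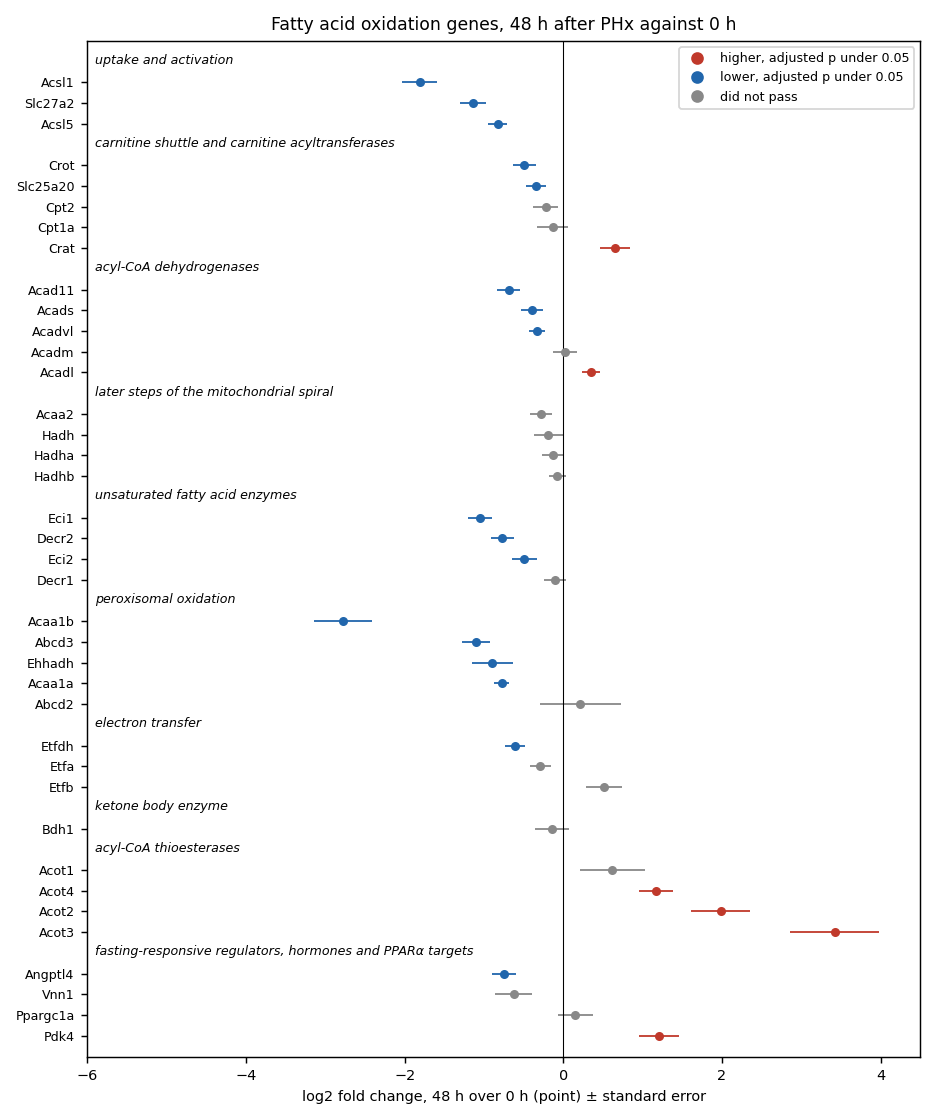
The log2 fold change of each tested gene (48 h after PHx over 0 h, horizontal axis, point) with its standard error (bar), ordered by role in the pathway, with blue for lower, red for higher and grey for genes that did not pass an adjusted p of 0.05. The points for uptake and activation and for most peroxisomal genes lie left of 0, those of the later mitochondrial steps lie close to 0, and those of the acyl-CoA thioesterases lie right of 0.

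The summed level of all 39 genes was 7687, 7541 and 8162 CPM at 0 h and 3659, 4842 and 5164 CPM at 48 h. The 48 h libraries were all lower, and the mean was 58.4% of the mean at 0 h (7796 ± 325 against 4555 ± 792 CPM, SD, n = 3). Acsl1 was the largest contributor (1946 ± 22.2 CPM at 0 h), and without it the 48 h mean was 68.4% of that at 0 h. By role, the sum over the 3 uptake and activation genes was 35.7% of its 0 h mean, that over the 5 peroxisomal genes 42.5%, and that over the 8 enzymes of the mitochondrial spiral 90.7% (Acadvl, Acadl, Acadm, Acads, Hadha, Hadhb, Hadh and Acaa2). With n = 3 per time point, an exact permutation test cannot give a two-sided p under 0.1, so no p is given for these sums.

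The 48 h replicate 1 stood apart among its time point in this pathway. It was the lowest of the 3 libraries for 31 of the 38 genes (81.6%), whereas it was lowest for 34.4% of all genes tested. At 0 h, replicate 2 was the lowest for 25 of the 38 (65.8%, against 40.1% of all genes). Without 48 h replicate 1, 13 genes were lower and 7 were higher, with a median log2 fold change of -0.22.

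**Figure D2:**
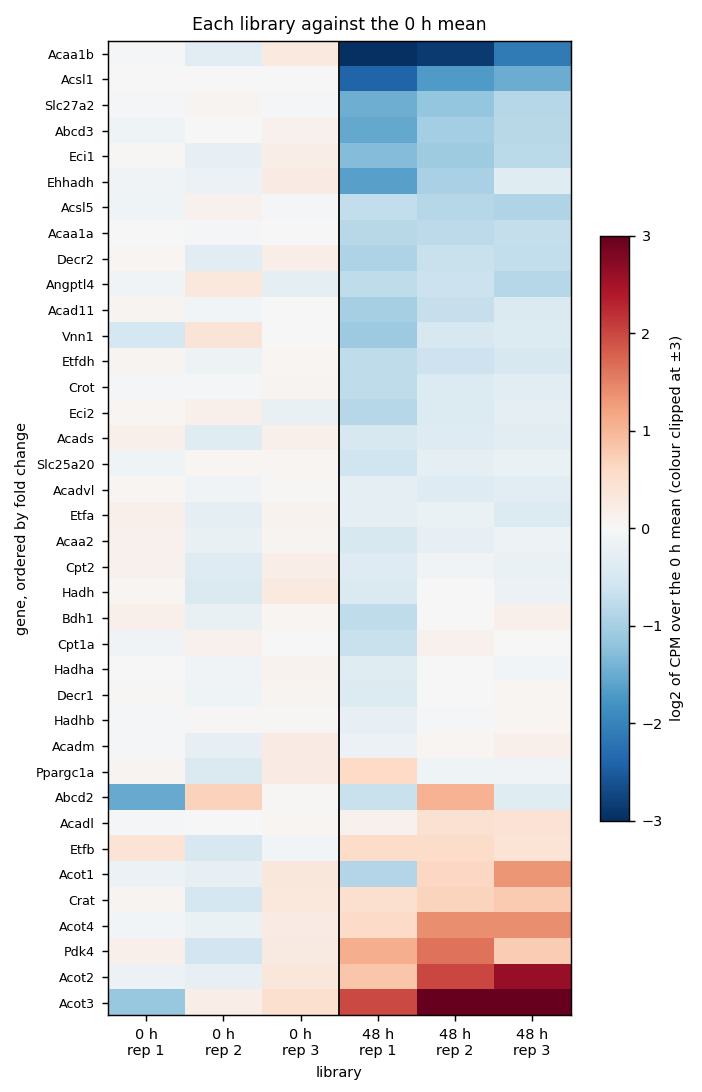
Each row is a gene, ordered by fold change, and each column a library; colour gives log2 of the library's CPM over the mean CPM at 0 h, clipped at 3 in either direction. The top 6 rows, from Acaa1b to Ehhadh, are blue in all 3 libraries at 48 h and deepest in replicate 1, and the bottom rows, from Crat to Acot3, are red in all 3.

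All 3 genes of uptake and activation were lower, and their sum was the smallest share of its 0 h mean among the 10 roles. Acsl1, the main long-chain acyl-CoA synthetase of liver (ENSMUSG00000018796.13, chr8:46471037-46536051, plus strand, GRCm38), stood at 1928, 1940.0 and 1971 CPM at 0 h and 366, 602 and 697 CPM at 48 h. The 0 h libraries lay within a narrow band, and the highest 48 h library was far below them (log2 fold change -1.81, SE 0.22, adjusted p = 0.000114), a 3.51-fold drop of the mean. Slc27a2, which encodes a fatty acid transport protein that also activates very long chains (ENSMUSG00000027359.16, chr2:126552407-126588243, plus strand), stood at 781, 846 and 778 CPM at 0 h and 292, 359 and 442 CPM at 48 h. The time points did not overlap here either (log2 fold change -1.14, SE 0.16, adjusted p = 0.000343). Acsl5, another long-chain acyl-CoA synthetase, ranged over 278 to 334 CPM at 0 h and 162 to 182 CPM at 48 h (log2 fold change -0.83, adjusted p = 0.000399). Per kilobase of exon, Slc27a2 had the highest level of the 3 at 0 h (214 ± 10.2 CPM per kb). Acsl1 (186 ± 2.12) and Acsl5 (62.4 ± 5.83) followed. At 48 h Acsl1 was at 52.9 ± 16.3 CPM per kb against 97.0 ± 20.01 for Slc27a2. The length used was the union of all annotated exons (10483 bases for Acsl1 and 3754 for Slc27a2), so ranks between genes depend on it. In CPM, Acsl1 was above Slc27a2 at both time points. The direction and the call of these 3 genes held under the 16 other fits run, and with a log2 fold change of at least 1 required Acsl5 was no longer called.

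Of the 5 carnitine genes, 2 were lower, 1 was higher and 2 did not pass. Cpt1a, the carnitine palmitoyltransferase at the outer mitochondrial membrane and the gate of the pathway, did not pass (log2 fold change -0.14, SE 0.19, adjusted p = 0.6003), with overlapping ranges of 409.5 to 479 CPM at 0 h and 279 to 481 CPM at 48 h. Its inner membrane partner Cpt2 did not pass either (log2 fold change -0.22, adjusted p = 0.293), although it did without 0 h replicate 2 (-0.40, adjusted p = 0.0243). Slc25a20, the carrier that exchanges acylcarnitine for carnitine across the inner membrane, was lower (log2 fold change -0.35, adjusted p = 0.0472), a call that was lost with scaling by library size only, without any single 0 h library, and without 48 h replicate 1 or 2, with adjusted p-values up to 0.457. Crot, the peroxisomal carnitine octanoyltransferase, had the highest level of the 5 per kilobase at 0 h (101 ± 5.75 CPM per kb) and stood at 537, 524 and 584 CPM at 0 h and 321, 409.8 and 437 CPM at 48 h. Its 48 h libraries were all below those at 0 h (log2 fold change -0.49, SE 0.15, adjusted p = 0.0203), and the call was lost without 0 h replicate 3 (adjusted p = 0.0682), without 48 h replicate 1 (0.0520) and with scaling by library size only (0.176). Crat, the carnitine acetyltransferase, was the only gene of this group that rose (log2 fold change 0.65, SE 0.19, adjusted p = 0.0181), from 30.2 ± 8.56 CPM at 0 h to 47.4 ± 4.93 CPM at 48 h (mean ± SD, n = 3).

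Among the acyl-CoA dehydrogenases, which take the first step of each round and differ in the chain length they prefer, 3 were lower, 1 was higher and 1 did not pass. Acadl, the long-chain enzyme, had the highest mean level per kilobase at 0 h (41.1 ± 1.74 CPM per kb), with a spread that overlapped that of Acadm (36.0 ± 6.27). Acadl stood at 78.6, 83.1 and 85.5 CPM at 0 h and 90.7, 112 and 112 CPM at 48 h, and the time points did not overlap (log2 fold change 0.35, SE 0.12, adjusted p = 0.0349). Acadvl, the enzyme of very long chains, was lower (log2 fold change -0.34, adjusted p = 0.0203). Acads, the short-chain enzyme, stood at 76.4, 53.6 and 77.1 CPM at 0 h and 49.8, 52.4 and 55.1 CPM at 48 h. It was called lower (log2 fold change -0.40, adjusted p = 0.0455) although its time points overlapped, since 0 h replicate 2 lay below 48 h replicate 3. Acadm, the medium-chain enzyme, did not pass (log2 fold change 0.02, SE 0.15, adjusted p = 0.932). Acad11, a further member of the family, was lower in all 3 libraries at 48 h (log2 fold change -0.69, adjusted p = 0.00321), from 152 ± 7.78 CPM at 0 h to 94.1 ± 17.7 CPM at 48 h.

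The calls on Acadl, Acadvl and Acads rested on small changes. Acadl lost its call under 9 of the 16 other fits, among them the omission of any 0 h library or of 48 h replicate 2 or 3 (largest adjusted p 0.123). Acadvl lost it under 6, among them the omission of 0 h replicate 1 or 3 or of 48 h replicate 2 or 3 (largest adjusted p 0.310). Acads lost it under 8, which included the omission of any library other than 0 h replicate 2 (largest adjusted p 0.311). Opposite-strand exons of Dvl2 cover 42.9% of the exon length of Acadvl, and whether strand was used in counting is not given in the sources used here, so reads of the 2 genes may not have been told apart.

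The 4 genes chosen for the later mitochondrial steps did not pass the test. Further enzymes of these steps are counted among the other pathway genes. Of these, the hydroxyacyl-CoA dehydrogenase gene Hsd17b10 was lower (log2 fold change -0.52, SE 0.15, adjusted p = 0.0186), with no overlap between the time points. The hydratase gene Echs1 did not pass (log2 fold change -0.36, SE 0.14, adjusted p = 0.0585). Hadha and Hadhb, the subunits of the mitochondrial trifunctional protein, had log2 fold changes of -0.13 (SE 0.14, adjusted p = 0.474) and -0.07 (SE 0.11, adjusted p = 0.616). Hadh, the hydroxyacyl-CoA dehydrogenase of shorter chains, did not pass either (log2 fold change -0.19, adjusted p = 0.432). Acaa2, the mitochondrial thiolase that ends a round, had the highest level of the group per kilobase at 0 h (195 ± 24.4 CPM per kb) and stood at 321, 253 and 312 CPM at 0 h and 212, 248 and 267 CPM at 48 h. The highest 48 h library lay above 0 h replicate 2 and below the other 0 h libraries (log2 fold change -0.29, SE 0.14, adjusted p = 0.131), and Acaa2 passed the test when 0 h replicate 2 was left out (log2 fold change -0.40, adjusted p = 0.0395). The fold changes of Hadha, Hadhb, Hadh and Acaa2 were all negative, and those of Hadha, Hadhb and Hadh turned positive with scaling by library size only (0.08, 0.13 and 0.02). A pseudogene, Gm13910, shares 50-base stretches with Hadhb transcripts, and 19.7% of all such stretches of Hadhb also occur in transcripts of other genes.

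The enzymes that let unsaturated chains enter the spiral by moving or reducing their residual bonds were lower in 3 of 4 cases. Eci1, the mitochondrial enoyl-CoA isomerase (ENSMUSG00000024132.6, chr17:24426641-24439348, plus strand), stood at 46.4, 38.3 and 52.0 CPM at 0 h and 18.4, 21.7 and 25.9 CPM at 48 h. Its mean fell 2.07-fold with no overlap between the time points (log2 fold change -1.05, SE 0.15, adjusted p = 0.000358). Decr2, the peroxisomal dienoyl-CoA reductase, had the highest level of the 4 per kilobase at 0 h (53.9 ± 9.38 CPM per kb). It stood at 149, 116 and 164 CPM at 0 h and 75.4, 89.4 and 86.3 CPM at 48 h, again with no overlap (log2 fold change -0.77, SE 0.14, adjusted p = 0.00174). Eci2, an isomerase found in peroxisomes and mitochondria, was lower (log2 fold change -0.49, adjusted p = 0.0314), but the call was lost without 0 h replicate 1 or 2, without 48 h replicate 1 or 2 and with scaling by library size only (largest adjusted p 0.227). Decr1, the mitochondrial reductase, did not pass (log2 fold change -0.10, SE 0.14, adjusted p = 0.575).

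Of the 5 peroxisomal oxidation genes, 4 were lower, and their sum stood at 1096, 1079.9 and 1337 CPM at 0 h and 346, 508 and 638 CPM at 48 h. Abcd3, an ABC transporter that carries fatty acyl-CoA into peroxisomes (ENSMUSG00000028127.10, chr3:121758774-121815302, minus strand), stood at 473, 509 and 568 CPM at 0 h and 179.7, 253 and 289 CPM at 48 h. The 48 h libraries were all below the 0 h libraries (log2 fold change -1.10, SE 0.18, adjusted p = 0.000691). Ehhadh, which combines the enoyl-CoA hydratase and hydroxyacyl-CoA dehydrogenase steps, ranged over 260.4 to 346 CPM at 0 h and 95.3 to 229.6 CPM at 48 h (log2 fold change -0.89, adjusted p = 0.0207), and its call was lost without 0 h replicate 3 (adjusted p = 0.0720), without 48 h replicate 2 (0.0649) and with scaling by library size only (0.0692). Abcd2, a transporter of the same family, was low and uneven among replicates, with values of 3.51, 16.0 and 10.2 CPM at 0 h and 6.27, 20.6 and 7.68 CPM at 48 h. It did not pass (log2 fold change 0.21, SE 0.51, adjusted p = 0.768), and without 48 h replicate 2 its log2 fold change was -0.51.

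The peroxisomal thiolases, which cleave the shortened chain, are encoded by Acaa1a (ENSMUSG00000036138.16, chr9:119339676-119350299, plus strand) and Acaa1b (ENSMUSG00000010651.4, chr9:119148023-119157093, minus strand) on the same chromosome. Their coding sequences of 1275 bases are identical at 96.5% of positions, and the longest identical run spans 327 bases, so reads from such runs could have been assigned to either gene or discarded. The stretch of 60 coding bases that separates them best (bases 460 to 519 of each coding sequence, read 5′ to 3′ on the coding strand, GENCODE M21 transcripts on GRCm38) is printed here because the fold changes of the pair rest on such positions, with the 11 differing bases in capitals. It lies at chr9:119346483-119346542 on the plus strand for Acaa1a and at chr9:119151842-119151901 on the minus strand for Acaa1b.
Acaa1a: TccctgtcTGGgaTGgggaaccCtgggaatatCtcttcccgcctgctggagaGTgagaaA
Acaa1b: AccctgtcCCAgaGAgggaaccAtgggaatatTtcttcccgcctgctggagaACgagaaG

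Acaa1b stood at 262, 214 and 328 CPM at 0 h and 18.3, 36.8 and 61.8 CPM at 48 h, the largest loss of the 38 genes. Its mean fell 6.88-fold, and the highest 48 h library was well below the lowest 0 h library (log2 fold change -2.78, SE 0.36, adjusted p = 0.000184). Acaa1a fell less, from 83.1 ± 1.54 CPM at 0 h to 48.5 ± 2.001 CPM at 48 h (log2 fold change -0.78, SE 0.09, adjusted p = 0.000120), with replicates close together at either time point. Per kilobase, Acaa1b was above Acaa1a at 0 h (136 ± 29.2 against 18.8 ± 0.349 CPM per kb). At 48 h the values were 19.9 ± 11.1 and 11.0 ± 0.453, with the SDs overlapping. The union exon lengths behind these values are 1962 bases for Acaa1b and 4414 for Acaa1a, although their coding sequences are equally long. In CPM, Acaa1b was above Acaa1a at 0 h, and the 48 h means were 38.9 and 48.5. The sum of both genes does not depend on how shared reads were divided between them, but it lacks any that were discarded. This sum stood at 346, 295 and 412 CPM at 0 h and 64.9, 85.1 and 112 CPM at 48 h, and its 48 h mean was 24.9% of that at 0 h. In all, 39.6% of the 50-base stretches of Acaa1b transcripts and 17.1% of those of Acaa1a also occur in transcripts of other genes.

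Electron transfer flavoprotein, a dimer of the products of Etfa and Etfb, collects the electrons of the acyl-CoA dehydrogenases, and the product of Etfdh hands them to ubiquinone. Etfdh was lower (log2 fold change -0.61, SE 0.12, adjusted p = 0.00261), from 172 ± 14.0 CPM at 0 h to 113 ± 11.2 CPM at 48 h. Etfa had the highest level of the 3 per kilobase at 0 h (38.9 ± 6.35 CPM per kb) and stood at 79.1, 58.0 and 77.0 CPM at 0 h and 58.6, 62.7 and 53.9 CPM at 48 h. It did not pass (log2 fold change -0.29, adjusted p = 0.106), but passed without 0 h replicate 2 (log2 fold change -0.43, adjusted p = 0.00811) and with 2 other scalings. Etfb stood at 3.51, 1.90 and 2.50 CPM at 0 h and 3.89, 3.86 and 3.51 CPM at 48 h, with all 48 h libraries above those at 0 h, although 0 h replicate 1 and 48 h replicate 3 are equal after rounding. It did not pass either (log2 fold change 0.51, adjusted p = 0.105), and passed without 0 h replicate 1 (log2 fold change 0.76, adjusted p = 0.0287) and with scaling by library size only (0.71, adjusted p = 0.0293). Its counts were 59 to 138 per library, and same-strand exons of Gm45233 cover 58.2% of its exon length, where reads that fit both genes may not have been counted. The values of Etfb are therefore uncertain.

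Bdh1, which interconverts the ketone bodies acetoacetate and β-hydroxybutyrate, stood at 145, 112 and 135 CPM at 0 h and 76.9, 133 and 145 CPM at 48 h. The 48 h replicate 1 lay below all other libraries, and the other 48 h libraries lay within or above the 0 h range (log2 fold change -0.14, SE 0.21, adjusted p = 0.615). Without 48 h replicate 1 the log2 fold change was 0.09 (adjusted p = 0.666).

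The acyl-CoA thioesterases, which release free fatty acids from acyl-CoA, rose in 3 of 4 cases. Acot1 to Acot4 lie in a cluster on the plus strand of chromosome 12 between positions 83987861 and 84060402 (GRCm38). Acot1 acts in the cytosol, Acot2 in mitochondria and Acot3 and Acot4 in peroxisomes. Acot1 and Acot2 are identical at 95.5% of aligned coding bases, with a longest identical run of 273 bases, and the other pairs at 74.5% to 84.3%. The 60 coding bases in which the 4 genes differ most without gaps (GENCODE M21 transcripts on GRCm38, plus strand, 5′ to 3′) are printed because the counts of the family depend on where its members differ, with capitals at the 40 positions that are not the same in all 4. They lie at chr12:84016961-84017020 for Acot1, chr12:83992683-83992742 for Acot2, chr12:84058602-84058661 for Acot3 and chr12:84043372-84043431 for Acot4.
Acot1: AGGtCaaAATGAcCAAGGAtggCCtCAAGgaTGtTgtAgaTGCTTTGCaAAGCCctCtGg
Acot2: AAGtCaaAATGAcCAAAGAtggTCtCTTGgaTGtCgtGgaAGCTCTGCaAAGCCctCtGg
Acot3: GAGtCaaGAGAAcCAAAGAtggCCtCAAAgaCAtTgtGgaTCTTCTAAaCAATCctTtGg
Acot4: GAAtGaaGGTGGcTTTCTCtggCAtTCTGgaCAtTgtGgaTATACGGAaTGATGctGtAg

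Acot3 showed the largest rise of the 38 genes, from a very low level. It stood at 0.204, 0.516 and 0.632 CPM at 0 h and 1.78, 8.28 and 4.66 CPM at 48 h, with counts of 6, 16 and 21 at 0 h and 60, 296 and 163 at 48 h. All 48 h libraries were above those at 0 h (log2 fold change 3.42, SE 0.56, adjusted p = 0.000808), and the log2 fold change was 2.81 without 48 h replicate 2, which had the highest level. Acot2 stood at 3.03, 2.87 and 4.31 CPM at 0 h and 6.09, 13.6 and 20.6 CPM at 48 h, and its mean rose 3.96-fold (log2 fold change 1.98, SE 0.37, adjusted p = 0.00187). Acot4 stood at 12.8, 11.8 and 16.1 CPM at 0 h and 20.1, 35.7 and 35.6 CPM at 48 h, a 2.25-fold rise of the mean (log2 fold change 1.17, SE 0.21, adjusted p = 0.00157). In these 3 genes the lowest 48 h value was that of replicate 1, which was still above every 0 h library.

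Acot1 did not pass (log2 fold change 0.62, SE 0.42, adjusted p = 0.263), with values of 7.05, 6.70 and 10.1 CPM at 0 h and 4.34, 12.3 and 19.99 CPM at 48 h. Its 48 h replicate 1 lay below all 0 h libraries and the other 48 h libraries lay above them, and without that replicate the log2 fold change was 1.02 (adjusted p = 0.00758). The sum of Acot1 and Acot2, the most similar pair, stood at 10.1, 9.57 and 14.4 CPM at 0 h and 10.4, 26.0 and 40.6 CPM at 48 h, so that 48 h replicate 1 fell within the 0 h range. The sum over all 4 genes stood at 23.1, 21.9 and 31.1 CPM at 0 h and 32.3, 69.9 and 80.9 CPM at 48 h, 2.41 times as high at 48 h in the mean. At 0 h the levels of Acot4 (2.03 ± 0.333 CPM per kb) and Acot1 (2.03 ± 0.480) differed by less than their SDs, and Acot2 was the highest at 48 h (6.13 ± 3.32), with a spread that overlapped that of Acot4 (4.57 ± 1.35). Of their 50-base stretches, 27.7% (Acot2), 21.3% (Acot3), 19.3% (Acot1) and 13.4% (Acot4) also occur in transcripts of other genes.

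**Figure D3:**
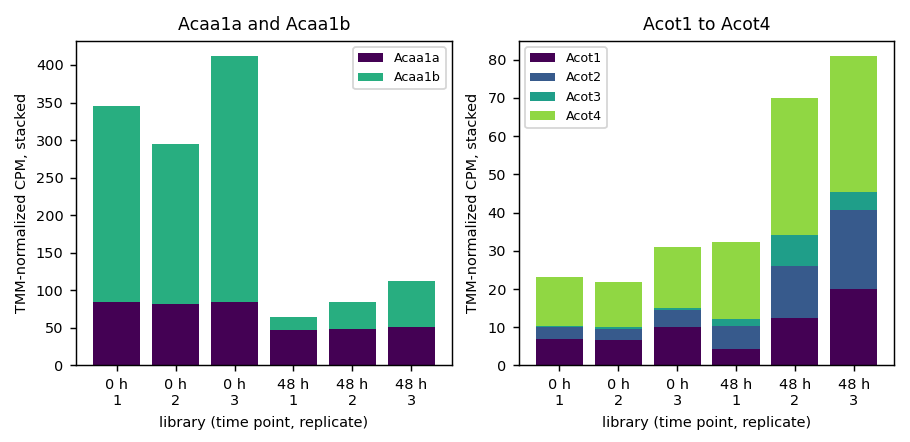
Stacked bars of TMM-normalized CPM in each library for the near-identical thiolase genes Acaa1a and Acaa1b (left) and for Acot1 to Acot4 (right). The thiolase stacks shrink at 48 h mainly through Acaa1b, while the Acot stacks of 48 h replicates 2 and 3 are the tallest and that of 48 h replicate 1 is close to 0 h replicate 3.

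The last group holds genes that respond to fasting and to PPARα or that steer fuel choice. Pdk4, the pyruvate dehydrogenase kinase that keeps carbohydrate carbon out of the tricarboxylic acid cycle (ENSMUSG00000019577.6, chr6:5483351-5496309, minus strand), stood at 9.80, 5.96 and 10.7 CPM at 0 h and 18.9, 27.1 and 15.1 CPM at 48 h. All 48 h libraries were above those at 0 h (log2 fold change 1.21, SE 0.25, adjusted p = 0.00313), and the mean rose 2.31-fold. Angptl4, a secreted inhibitor of lipoprotein lipase, had the highest level of the group per kilobase at 0 h (40.1 ± 8.39 CPM per kb). It stood at 132, 175 and 118 CPM at 0 h and 83.8, 90.6 and 78.6 CPM at 48 h, with no overlap between the time points (log2 fold change -0.75, SE 0.15, adjusted p = 0.00266). Both are commonly listed as PPARα targets, and they changed in opposite directions.

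Vnn1, a pantetheinase and another such target, lay just outside the threshold (log2 fold change -0.63, SE 0.23, adjusted p = 0.0507), with ranges of 15.2 to 28.4 CPM at 0 h and 10.3 to 16.4 CPM at 48 h, and passed it under 8 of the 16 other fits. Ppargc1a, the coactivator PGC-1α, did not pass (log2 fold change 0.15, SE 0.22, adjusted p = 0.619). Its log2 fold change was -0.13 without 48 h replicate 1 and -0.03 without 0 h replicate 2. Fgf21, the fasting hormone, was not tested, and its counts were 6, 15 and 1 at 0 h and 2, 4 and 13 at 48 h. The time points overlapped, and the counts varied widely between replicates.

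**Figure D4:**
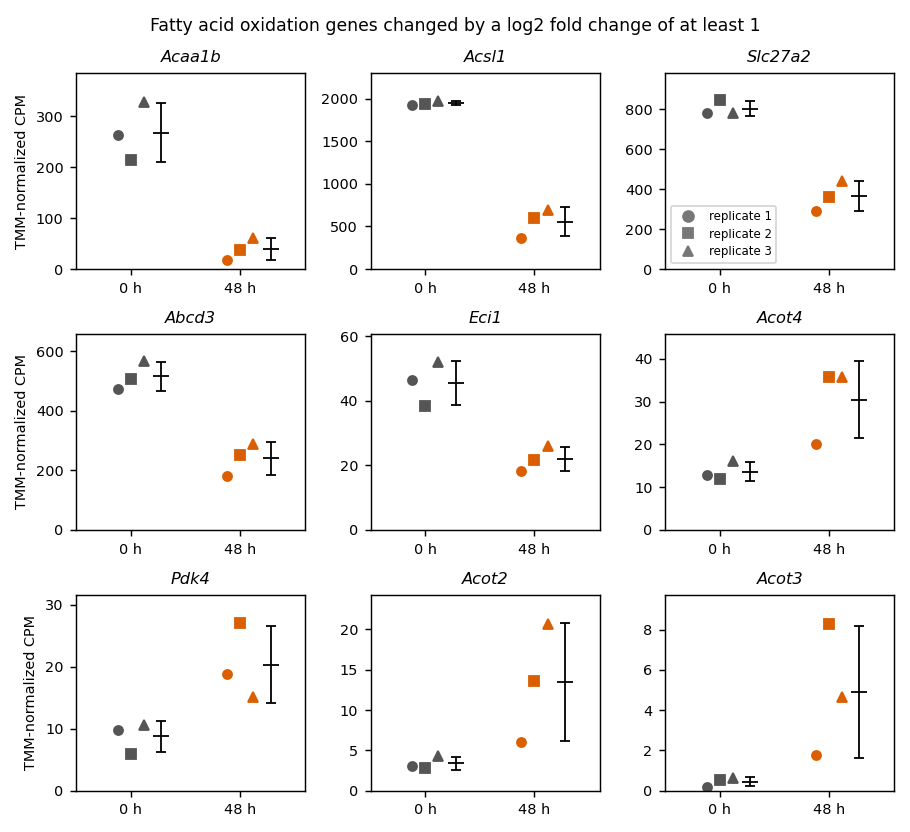
TMM-normalized CPM in each library for the 9 genes that passed the test with a log2 fold change of at least 1 in size (circles, squares and triangles for replicates 1, 2 and 3; grey for 0 h, orange for 48 h; dash and bar for the mean and SD of 3 libraries). In all 9 panels the 3 points of a time point lie on 1 side of those of the other, and the axes start at 0.

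The promoters of the genes were searched for the element that PPARα binds with its partner RXR, a direct repeat of AGGTCA with 1 base between the copies (AGGTCANAGGTCA, both strands, at most 2 mismatches over the 12 fixed bases). RefSeq promoters (GRCm38.p6, 250 bases before to 50 bases after the start) were matched to 33 of the 39 genes. A match was found for 3 of the 33 (9.09%), against 4.40% of the 27025 genes with a promoter, and each match had 2 mismatches. The matches are shown with 8 bases on either side, 5′ to 3′ on the strand of the gene, with the matched bases in capitals.
Slc25a20 (chr9:108662134-108662162, plus strand): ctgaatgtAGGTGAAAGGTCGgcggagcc
Etfa (chr9:55512300-55512328, minus strand): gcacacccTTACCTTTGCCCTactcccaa
Acot4 (chr12:84038358-84038386, plus strand): ccgaagcaTGACCTTTGGCCGgtctgtgc

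In Etfa and Acot4 the element reads on the strand opposite to the gene and is centred 71 and 7 bases before the start, and in Slc25a20 it reads on the strand of the gene and is centred 12 bases after it. The 3 genes did not move together: Slc25a20 was lower, Acot4 was higher and Etfa did not pass. These matches describe the letters of a short window and are not shown to be bound.

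Other genes of the pathway were counted by list, beside 19.3% lower and 21.4% higher among all genes tested. Of 27 further fatty acid oxidation and ketone body genes tested, 16 were lower and 3 were higher, with a median log2 fold change of -0.64. Acacb, which makes the malonyl-CoA that inhibits Cpt1a, fell from 273 ± 10.4 CPM at 0 h to 74.1 ± 11.5 CPM at 48 h (log2 fold change -1.88, SE 0.14, adjusted p = 2.98e-06), and Slc27a5, a bile acid and very long chain acyl-CoA synthetase, had a log2 fold change of -1.59 (adjusted p = 6.25e-06). Oxct1, which allows tissues other than liver to use ketone bodies, was higher from a very low level (1.13 ± 0.264 CPM at 0 h to 2.90 ± 0.531 CPM at 48 h; log2 fold change 1.36, adjusted p = 0.00166). Acsl4, an acyl-CoA synthetase that prefers arachidonate, also rose (log2 fold change 0.89, adjusted p = 0.000231), in contrast to Acsl1 and Acsl5.

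Of 17 further peroxisomal oxidation genes, 11 were lower and 6 did not pass (median -0.54), with the largest losses in Nudt7, a peroxisomal CoA diphosphatase (log2 fold change -1.79, adjusted p = 4.10e-05), and Acox3, an acyl-CoA oxidase (log2 fold change -1.25, adjusted p = 1.12e-05). Of the 16 peroxisome biogenesis genes, 9 were lower and 1 was higher (median -0.39). Pex6 (log2 fold change -1.13, adjusted p = 2.0e-05) and Pex16 (log2 fold change -0.85, adjusted p = 0.000168) fell, and Pex26 rose (log2 fold change 0.34, adjusted p = 0.0439). Among 17 further PPARα targets, 6 were lower, 3 were higher and 8 did not pass (median -0.39), with Txnip (-1.98) and Cyp4a10 (-1.77) lower and Ucp2 (2.19) and Cyp4a31 (0.86) higher.

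Of 20 regulators of these genes, 8 were lower and 1 was higher (median -0.34). Lpin1, a coactivator of PPARα, had a log2 fold change of -1.31 (adjusted p = 0.000419), and Sirt3, a mitochondrial deacetylase, of -0.93 (adjusted p = 0.000132). Foxo1 was higher (log2 fold change 0.47, adjusted p = 0.0307), with overlapping time points. The 17 genes of the tricarboxylic acid cycle, which receives the acetyl-CoA, had a median of 0.00, with 3 higher and 1 lower. Fh1 (log2 fold change 0.96, adjusted p = 0.00195) and Mdh2 (log2 fold change 0.91, adjusted p = 0.00146) rose, and Sdha fell (log2 fold change -0.41, adjusted p = 0.0167). The differences between these lists were not tested.

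**Figure D5:**
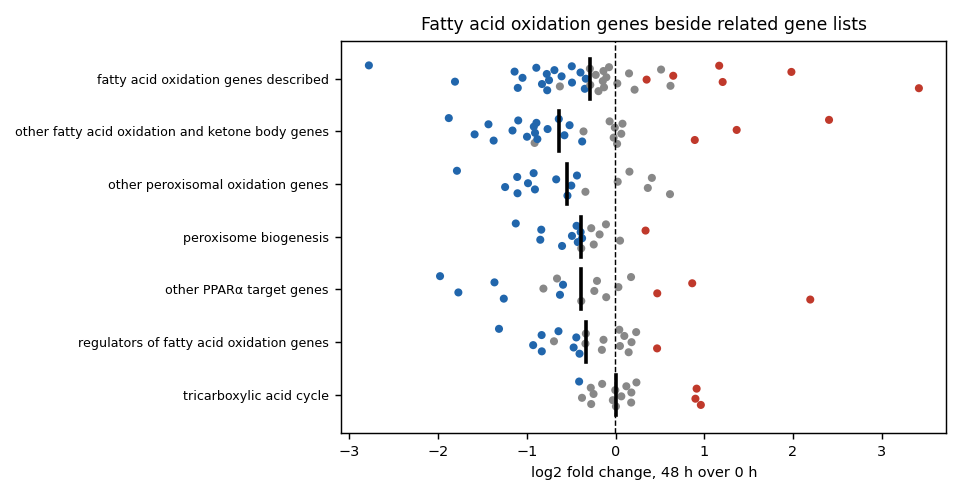
Each point is a tested gene, placed by its log2 fold change (48 h after PHx over 0 h) and grouped by list, with blue for lower, red for higher and grey for genes that did not pass. The black bars mark the list medians, from -0.64 to 0.00, and the dashed line marks the median of all genes tested.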

How the data were processed

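RNA-Seq libraries of primary hepatocytes at 0 h and 48 h after PHx (3 each, groups and replicate numbers from the sample labels) were analysed from the raw counts per gene deposited by the authors, without normalization. The submitters' processing notes name FastQC 0.11.5, Trim Galore 0.6.4, STAR 2.6, HTSeq 0.12.4 and DESeq2, and the identifiers are those of GENCODE M21 (GRCm38, mm10). The strand setting and counting mode are not given in the sources used here. The tables hold 31419443 to 36346220 gene counts per library, and reads on no gene or on several genes were left out of library sizes (24.3% to 32.7% and 4.27% to 5.29% of the listed reads). Floors of 3 counts cover counting error only.

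TMM factors, CPM and the quasi-likelihood test (glmQLFit, glmQLFTest) were computed with edgeR 4.0.16 in R 4.3.3 over the 17037 genes that reached 10 counts in 3 or more libraries, with time as the only term, all 6 libraries in the fit and Benjamini-Hochberg adjustment over all genes tested (threshold 0.05). Standard errors are the log2 fold change divided by the square root of F. The mice were separate animals, so p-values measure the spread between preparations. CPM per kb divides CPM by the union of all annotated exons of a gene, so ranks between genes depend on the annotated length. Shared 50-base stretches and coding identity were computed from GENCODE M21 transcripts, and promoters are those of RefSeq. The alternatives were DESeq2 1.42.0, limma-voom (limma 3.58.1), 5 other scalings or gene sets for scaling, 2 other filters, a replicate block and the omission of each library (16 other fits), and, on the same fit, a fold threshold.

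The rule for the 39 genes uses no measured value, but these genes and the other lists were chosen with earlier results of these data known. Values in every library are given for genes that passed with a log2 fold change of at least 1 in size, for the highest level per kilobase of each role, and where call and overlap of the time points differ (Acads, Etfb), with a few further genes (Abcd2, Acot1) chosen after their values were seen. Of the other lists, up to 2 genes per direction with the largest change and a mean of at least 1 CPM are named. Hsd17b10 and Echs1 were added after their values were seen.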

Additional observations from a re-analysis of the deposited data

How the results depend on the processing

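Of the 23 genes that passed the test, 16 kept call and direction under all 16 other fits, 7 lost the call under at least 1 of them (Slc25a20, Crot, Acadvl, Acadl, Acads, Eci2 and Ehhadh), and 0 changed direction. Of the 15 that did not pass, 6 passed under at least 1 of these fits (Cpt2, Acaa2, Etfa, Etfb, Acot1 and Vnn1) and 9 changed sign. The counts stayed within 1.5 times of 6 higher and 17 lower genes except under 2 settings. With scaling by library size only, 11 genes were lower and the median log2 fold change was -0.082, where the median of all genes tested moved to 0.20 and 5308 genes were higher and 2110 lower (3638 and 3288 with TMM). With a log2 fold change of at least 1 required, which changes the threshold and not the fit, 5 were lower and 4 higher, so that 14 of the 23 were no longer called. The omission of single libraries gave 5 to 7 higher genes, 12 to 18 lower genes and medians of -0.39 to -0.22, with fewer libraries in each fit.

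All 9 genes that changed sign had not passed the test. With scaling by library size only, the log2 fold changes were 0.075 for Cpt1a, 0.077 for Hadha, 0.13 for Hadhb, 0.018 for Hadh, 0.11 for Decr1 and 0.072 for Bdh1. Acadm had -0.059 with upper quartile factors and -0.029 with TMM factors from protein-coding genes. The omission of single libraries gave -0.29 to 0.065 for Cpt1a, -0.10 to 0.15 for Acadm, -0.18 to 0.025 for Decr1, -0.51 to 0.73 for Abcd2, -0.31 to 0.087 for Bdh1 and -0.13 to 0.29 for Ppargc1a. Cpt1a, Decr1, Bdh1 and Ppargc1a changed sign without 48 h replicate 1, Ppargc1a also without 0 h replicate 2, Abcd2 without 0 h replicate 1 or 48 h replicate 2, and Acadm without 0 h replicate 1 or 2 or 48 h replicate 2 or 3. The causes were not tested.

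A fit that took the replicate number as a block called 5 genes higher and 16 lower (median -0.28). Acadl, Acadvl and Acads lost their calls and Vnn1 passed. The same-numbered libraries came from different mice, their deviations correlated with r of 0.04, -0.11 and -0.18, and not every library correlated best with its own number. Whether same-numbered libraries shared a batch was not tested, and 3 libraries per time point are too few for these correlations to show it. Fgf21 had too few counts to be tested, and Acot3 at 0 h rested on 6 to 21 counts per library.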

Other observations

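By compartment, 19 of the 39 genes were taken as mitochondrial and 9 as peroxisomal. The remaining 11 were left out, namely Crat, Eci2, Acad11, Acsl1, Acsl5 and Slc27a2, whose place is shared or unsure, and Acot1, Vnn1, Fgf21, Angptl4 and Ppargc1a, which act elsewhere. Acsl1, Acsl5 and Slc27a2, all lower with log2 fold changes of -1.81, -0.83 and -1.14, are therefore in neither count. This grouping was chosen after the values were seen. Of the 19 mitochondrial genes, 5 were lower and 3 were higher, with a median log2 fold change of -0.14, beside 19.3% lower and 21.4% higher among all genes tested. Of the 9 peroxisomal genes, 6 were lower and 2 were higher (Acot3 and Acot4), with a median of -0.77. The difference between the compartments was not tested.

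Across the 38 genes, those with a higher level had a more negative log2 fold change. Pearson's r between log2 mean CPM and log2 fold change was -0.70 and Spearman's rho -0.61. The genes share the same 6 libraries and are not independent replicates, and the 8 genes with a mean under 20 CPM weigh on the relation, since r was -0.48 over the other 30.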
